A study of Mus musculus with 18 samples.

Results

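Fc receptors and the adaptors and enzymes that carry their signal were followed through blood differentiation of mouse embryonic stem cells and through the conversion of mouse fibroblasts towards blood cells. The members were 10 genes chosen by name: the Fc gamma receptors *Fcgr1*, *Fcgr2b*, *Fcgr3* and *Fcgr4*, the adaptors *Fcer1g* and *Tyrobp*, the receptors *Trem2* and *Clec7a*, the kinase *Syk* and the phospholipase *Plcg2*. All 10 were present among the 20066 genes of the stage table and among the 20268 genes of the fibroblast table. The stages analysed here were ESC (embryonic stem cells), MES (Bry.GFP+, FLK1- mesoderm), HB (Bry.GFP+, FLK1+ hemangioblast), HP (CD41+ hematopoietic progenitors) and MAC (CD11b+ macrophages), all from a strain 129 ES cell line with a brachyury-GFP reporter. Each stage had 2 replicates, but the deposited value of a stage combines them, which leaves the stages without a measured spread and without a test. The fibroblasts (MEFs) came from strain 129 embryos at embryonic day 14.5, either wild type or iTal1-2A-GFP with rtTA and TRE-TAL1 cassettes that express TAL1 upon doxycycline, and the labels do not say which genotype went into which library. They were untreated (uFIB) or carried SL (*Scl*, also named *Tal1*, and *Lmo2*), SFGL (*Scl*, *Fli1*, *Gata2* and *Lmo2*) or FGL (*Fli1*, *Gata2* and *Lmo2*), with 1 library each at day 12 and day 21.

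An Fc receptor binds the constant part of antibodies on a coated particle. Most activating Fc receptors have no signalling motif of their own and pair in the membrane with a short adaptor that carries an ITAM, a stretch with a pair of tyrosines that Src-family kinases phosphorylate. The kinase SYK docks on the phosphorylated ITAM and activates phospholipase C gamma and further enzymes that lead to phagocytosis, the oxidative burst and cytokine release. FCGR2B opposes this through an inhibitory motif that recruits lipid phosphatases. In macrophages, neutrophils and mast cells the same adaptors also serve receptors for lipids, sugars and microbial ligands.

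*Fcgr2b*, *Fcgr4*, *Fcgr3* and *Fcer1g* lie close together on chromosome 1 of GRCm38, *Fcgr2b* at chr1:170960559-170976071 on the minus strand, *Fcgr4* at chr1:171018926-171029761 on the plus strand, *Fcgr3* at chr1:171051169-171059403 on the minus strand and *Fcer1g* at chr1:171229572-171234349 on the minus strand. *Fcgr1* lies apart from them at chr3:96282909-96293969 on the minus strand. *Tyrobp* (chr7:30413788-30417579), *Trem2* (chr17:48346401-48352276), *Syk* (chr13:52583437-52648792) and *Plcg2* (chr8:117498291-117635142) are on the plus strand, and *Clec7a* (chr6:129461591-129472777) is on the minus strand. These ranges are whole genes as the stage table gives them, counted from 1.

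The ITAM separates the adaptors from the receptors that use them, and the coding bases of both adaptors are therefore shown, from GENCODE M21 transcripts of the reference strain, with the codons of both ITAM tyrosines in capitals. The stretch covers codons 65 to 79 of the 86 of *Fcer1g* and codons 92 to 106 of the 114 of *Tyrobp*.
Fcer1g: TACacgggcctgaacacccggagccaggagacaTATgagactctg
Tyrobp: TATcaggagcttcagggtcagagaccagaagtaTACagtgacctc
The search asked for a tyrosine codon, 2 codons, leucine or isoleucine, 6 to 12 codons, and the same again. It found this spacing in 2 of the 10 members, which are the 2 adaptors, and in 6.66% of the 21562 genes with a full coding region. *Clec7a*, whose product signals through a single tyrosine motif, had no such stretch.

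The promoters were searched for letters bound by PU.1, the myeloid transcription factor encoded by *Sfpi1* in these tables, and the bases before the start are shown for the 5 members with a match there and for *Fcer1g*, which had none. Each line holds the 100 bases before a RefSeq start (GRCm38.p6) on the strand of the gene, with GAGGAA or its reverse complement TTCCTC in capitals.
Fcgr1: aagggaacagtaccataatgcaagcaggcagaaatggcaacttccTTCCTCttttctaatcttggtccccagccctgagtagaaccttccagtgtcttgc
Fcgr3: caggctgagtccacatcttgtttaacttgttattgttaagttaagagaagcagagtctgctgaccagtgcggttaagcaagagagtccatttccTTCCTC
Fcgr4: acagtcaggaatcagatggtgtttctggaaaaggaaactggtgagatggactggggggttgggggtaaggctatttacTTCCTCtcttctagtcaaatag
Trem2: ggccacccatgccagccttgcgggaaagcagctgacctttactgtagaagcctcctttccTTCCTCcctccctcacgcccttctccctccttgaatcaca
Clec7a: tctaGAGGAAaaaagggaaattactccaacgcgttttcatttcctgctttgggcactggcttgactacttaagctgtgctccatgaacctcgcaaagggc
Fcer1g: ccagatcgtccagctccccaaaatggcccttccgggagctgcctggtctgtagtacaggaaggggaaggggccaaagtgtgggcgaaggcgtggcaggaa
The windows lie at chr3:96293970-96294069 for *Fcgr1*, chr1:171059404-171059503 for *Fcgr3*, chr1:171018826-171018925 for *Fcgr4*, chr17:48346301-48346400 for *Trem2*, chr6:129472780-129472879 for *Clec7a* and chr1:171234350-171234449 for *Fcer1g*. Over the full promoter windows, GAGGAA in either direction was present in 6 of the 9 members with an entry, the sixth being *Syk* at its downstream RefSeq start, and in 25.9% of 27025 genes. *Tyrobp* had no entry. The letters TTNCNNAA, bound by C/EBP factors, were in 4 of 9 members and 40.3% of genes, TGNGGT, bound by RUNX factors, in 4 of 9 and 43.3%, and TGANTCA, bound by AP-1, in 1 of 9 and 7.82%. These matches are descriptions of letters and no test was made of them.

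In the stages, 8 of the 10 members were under 1 FPKM in ESC, MES and HB, all 10 were above 0 in HP, and all 10 had their highest value in MAC. FPKM is the number of fragments scaled to transcript length and sequencing depth. MAC was the highest stage for 46.8% of the genes with at least 1 FPKM in a stage. The median of the members was 0.0558 FPKM in HB, 4.29 in HP and 262 in MAC. With a change counted from 2-fold on log2(FPKM + 0.001) and at least 1 FPKM in 1 of the 2 stages, 1 member was higher in MES than in ESC, where 11.3% of genes were, and 2 were lower in HB than in MES, where 6.3% of genes were. From HB to HP, between which the hemogenic endothelium was not analysed here, 7 members were higher, where 12.3% of genes were, and from HP to MAC 9 members were higher, where 38% of genes were. The 7 members higher in HP were all those that reached 1 FPKM in HB or HP.

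**Figure D1:**
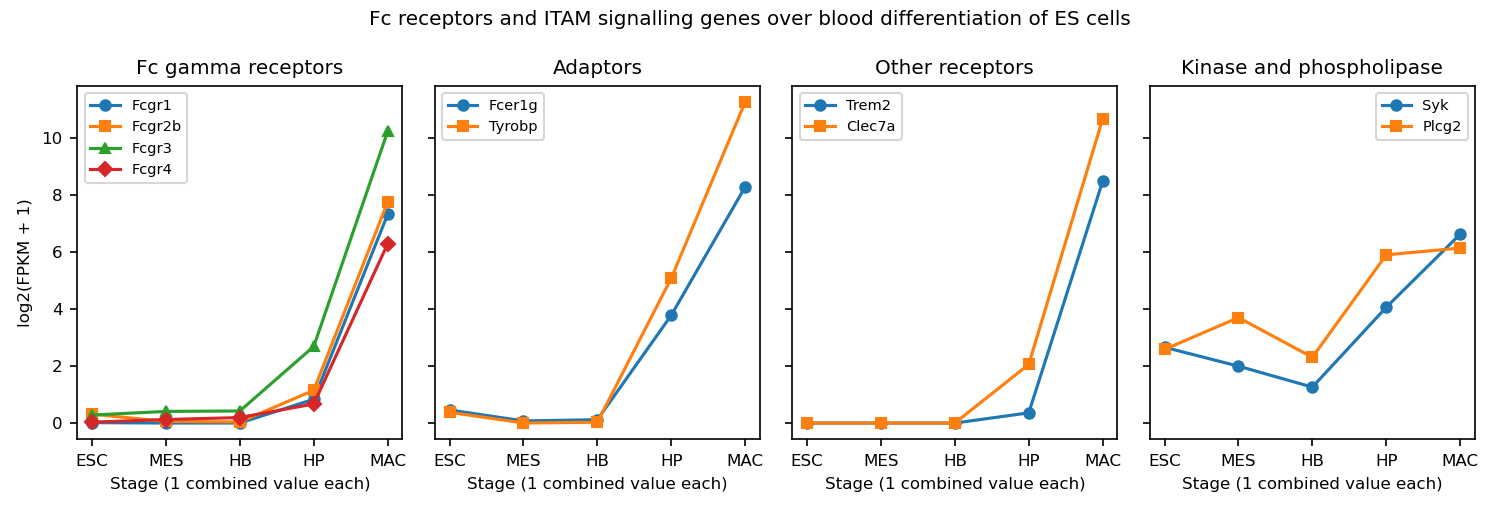
log2(FPKM + 1) of the 10 members from ESC to MAC, 1 point per gene and stage with the replicates combined by the authors and no error bars. Apart from Syk and Plcg2, the members lie near 0 up to HB, and all have their highest value in MAC.

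Of the Fc gamma receptors, *Fcgr3*, the low affinity activating receptor, had the highest level in every stage from MES on. Its value was 0.214 FPKM in ESC, 0.326 FPKM in MES and 0.341 FPKM in HB and then 5.43 in HP and 1194 in MAC, a MAC value 220 times that of HP. *Fcgr2b*, the inhibitory receptor, was at 0.240, 0.0401, 0.0268, 1.22 and 214 FPKM in the same order. Both were thus close to 0 before HP and high in MAC, where *Fcgr3* ranked 26 and *Fcgr2b* 237 of 20066. *Fcgr1*, the high affinity receptor for monomeric IgG, was at 0.00960 FPKM in ESC, 0 in MES and HB, 0.783 in HP and 158 in MAC. *Fcgr4*, an activating receptor of monocytes, macrophages and neutrophils, was at 0.0219, 0.0887, 0.142, 0.590 and 76.8 FPKM. *Fcgr1* and *Fcgr4* stayed under 1 FPKM in HP, so that among the Fc gamma receptors *Fcgr3* and *Fcgr2b* alone reached 1 FPKM in these progenitors.

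The adaptors were higher in HP than any of the receptors they serve here. *Tyrobp*, which encodes DAP12, was at 0.298 FPKM in ESC and at 0 and 0.0201 FPKM in MES and HB, then at 32.8 FPKM in HP and 2442 in MAC, the rank 9 of all genes in MAC. *Fcer1g*, which encodes the Fc receptor gamma chain, was at 0.374, 0.0524, 0.0847, 12.7 and 310 FPKM. From HB to HP, log2(FPKM + 1) increased by 5.05 for *Tyrobp* and 3.66 for *Fcer1g*, and by 0.83, 1.11, 2.26 and 0.48 for *Fcgr1*, *Fcgr2b*, *Fcgr3* and *Fcgr4*. From HP to MAC the order differed, with 6.18 for *Tyrobp* and 4.50 for *Fcer1g* against 6.48, 6.60, 7.54 and 5.61 for the receptors. The FPKM of *Fcer1g* divided by the sum of the activating Fc gamma receptors was 1.87 in HP and 0.217 in MAC. The FPKM of *Tyrobp* divided by that of *Fcer1g* was 2.58 in HP and 7.89 in MAC.

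*Trem2*, a lipid-sensing receptor that pairs with DAP12, was listed at 0 in ESC, MES and HB and reached 0.280 FPKM in HP and 355 in MAC, the highest MAC to HP ratio of the members at 1267. *Clec7a*, which encodes the beta-glucan receptor Dectin-1, was likewise listed at 0 in ESC, MES and HB, but reached 3.16 FPKM in HP and 1621 in MAC, 513 times the HP value. *Clec7a* had the rank 17 and *Trem2* the rank 116 of all genes in MAC.

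*Syk* and *Plcg2*, which act below the activating receptors among these, were the 2 members with at least 1 FPKM in every stage. *Syk* was at 5.30, 2.98 and 1.39 FPKM from ESC to HB, at 15.7 FPKM in HP and at 97.5 FPKM in MAC. Of its 2 starts, which the table does not place, the stronger held 14.9 of these FPKM in HP and 90.7 in MAC, and the weaker 0.793 and 6.71. *Plcg2*, which encodes phospholipase C gamma 2, was at 4.98, 12.0 and 3.94 FPKM from ESC to HB, at 58.6 FPKM in HP and at 69.4 FPKM in MAC. Its level thus came close to that of MAC already in HP, where it ranked 443 of all genes, and it was the member not called from HP to MAC. The difference of *Plcg2* between MAC and HP on log2(FPKM + 1) was 0.24, while the median over all 10815 genes that averaged 1 FPKM or more over the stages was 0.36, and it was -0.48 after upper-quartile scaling, where the median over all genes was -0.21. Set against the median of all genes, the other 9 members were higher in MAC by 2.21 (*Syk*) to 8.25 (*Clec7a*) and *Plcg2* stood at -0.12. The labelled macrophages carried macrophage transcripts, with 10 of 11 macrophage markers at 1 FPKM or more, among them *Csf1r* at 234 FPKM, *Emr1* at 353 FPKM and *Mrc1* at 279 FPKM, while *Marco* was at 0.401 FPKM. HP was mixed in its markers, with 5 of 11 macrophage markers (summed 24.1 FPKM) and 9 of 9 erythroid markers (summed 6941 FPKM) at 1 FPKM or more, against 3 of 9 erythroid markers (summed 23.5 FPKM) in MAC. Their part in the HP values of the members was not tested. Of 10 neutrophil markers, 4 reached 1 FPKM in MAC, with *S100a8* highest at 39.1 FPKM, and of 11 mast cell and basophil markers 2 did. Fewer cells of a type and less RNA per cell cannot be told apart in these bulk samples.

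Other genes of the pathway were also compared between HP and MAC, where 38% of the genes with at least 1 FPKM in either stage were higher and 16.9% lower. The summed FPKM of all genes was 185803 in HP and 381686 in MAC, and the upper quartile of genes above 0 was 10.8 and 18.1 FPKM. The counts of these lists are given without scaling for this, so that genes just past 2-fold are the least firm. A gene that reaches 1 FPKM in MAC alone can only be higher, and the counts over all listed genes with no limit on FPKM are therefore given as well, where 27.9% of all genes were higher and 21.3% lower. Of 12 other Fc receptors, 3 reached 1 FPKM, each of them in MAC alone, and with no limit 8 of 12 were higher and 2 lower. *Fcgrt*, the neonatal Fc receptor that recycles IgG, went from 0.389 to 163 FPKM and *Fcrls* from 0.197 to 17.2 FPKM, while *Fcer2a* was at 0.0119 FPKM in HP and 0 in MAC. Of 20 other receptors coupled to *Tyrobp* or *Fcer1g*, 10 reached 1 FPKM, 4 of them in MAC alone, and 9 were higher and 1 was lower, against 13 and 4 of 20 with no limit. *Clec4n* (Dectin-2) went from 7.12 to 707 FPKM and *Clec4d* from 1.26 to 207 FPKM, and the lower one was *Clec1b*, the podoplanin receptor of platelets with a tyrosine motif of its own, from 8.18 to 2.45 FPKM. *Clec1b* is itself 1 of the 9 megakaryocyte markers, which went in both directions: *Itga2b* from 62.5 to 7.75 FPKM, but *Pf4* from 23.0 to 274 FPKM. None of the other adaptors with an ITAM reached 1 FPKM in HP or MAC, *Cd79b* of the B cell receptor being at 0.611 and 0.0369 FPKM. *Hcst* stood in the same list of 7 genes, although its product DAP10 has a lipid kinase motif and no ITAM, and went from 0 to 21.6 FPKM. With no limit, 1 of these 7 genes was higher, which is *Hcst*, and 4 were lower.

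Of the 12 other kinases of ITAM signalling, 9 reached 1 FPKM, 1 of them in MAC alone, and 6 were higher in MAC and 0 lower, against 7 and 1 of 12 with no limit. The Src-family kinase *Lyn* was at 18.1 FPKM in HP and 78.3 in MAC, while *Fyn*, of the same family, was at 11.3 and 9.01 FPKM. Of 26 downstream effectors in the table, all reached 1 FPKM, 5 of them in MAC alone, and 19 were higher and 2 lower, as with no limit. The NADPH oxidase genes led, with *Ncf4* going from 5.11 to 139 FPKM and *Cybb* from 1.61 to 121 FPKM, and *Grap2*, an adaptor best known from T cells and platelets, was lower, from 24.5 to 0.805 FPKM. Of 26 inhibitory receptors and negative regulators in the table, 23 reached 1 FPKM, 7 of them in MAC alone, and 21 were higher and 1 lower, against 23 and 1 of 26 with no limit. Among these *Sirpa*, the receptor of the CD47 signal, went from 12.3 to 738 FPKM, *Lilrb4* from 7.96 to 448 FPKM and *Cd300lf* from 1.45 to 165 FPKM, and the lower one was *Sla2*, an adaptor that dampens receptor signalling, from 4.82 to 0.109 FPKM. The median change on log2(FPKM + 1) was 6.33 for the members, 3.27 for the other coupled receptors, 1.84 for the kinases, 2.19 for the effectors and 2.08 for the inhibitory genes, against 0.45 for all genes tested.

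**Figure D2:**
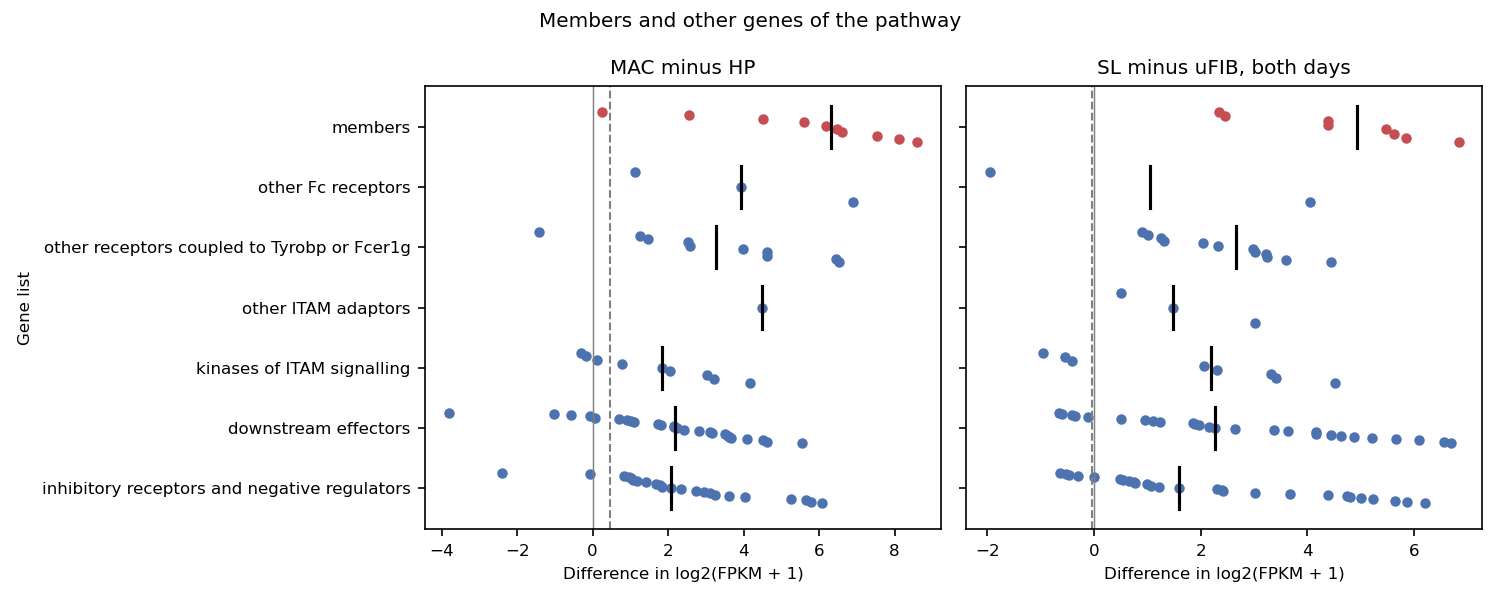
Difference in log2(FPKM + 1) for each tested gene, MAC minus HP on the left and SL minus uFIB over both days on the right, for the members (red) and 6 other lists (blue). Black bars mark each list's median, the solid line marks 0 and the dashed line the median of all genes tested, and the members' medians of 6.33 and 4.93 lie to the right of those of all other lists.

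In the fibroblast table the transcripts of the supplied factors were read beside the labels. In the libraries labelled FGL, *Tal1* was above uFIB at day 12 and *Fli1* was near uFIB at day 21, while *Lmo2* and *Gata2* were above uFIB on both days. *Tal1*, which the label FGL does not name, was at 7.04 FPKM in the FGL library of day 12 and 0.0705 FPKM in that of day 21, against 0.0414 and 0.415 FPKM in uFIB and 62.0 and 347 FPKM in SL. *Fli1*, which the label names, was at 8.29 FPKM at day 12 and 3.35 FPKM at day 21, against 3.43 and 3.02 FPKM in uFIB. *Lmo2*, at 36.2 and 66.5 FPKM against 0.499 and 2.28 FPKM in uFIB, and *Gata2*, at 21.9 and 35.1 FPKM against 1.80 and 2.13 FPKM, were high on both days, and the label names both. SL, whose label names neither *Fli1* nor *Gata2*, had *Fli1* at 46.7 and 34.4 FPKM and *Gata2* at 68.8 and 62.6 FPKM. SFGL had *Fli1* at 41.2 and 27.8 FPKM and *Gata2* at 110 and 132 FPKM. The level of these factors alone thus does not tell which were supplied. Relative depth, read from the spacing of the values under 0.3 FPKM, ranged from 0.578 of that of uFIB day 12 in FGL day 21 to 1.55 in SL day 12. Zeros in FGL day 21 thus rest on the shallowest library, although SL day 21 was nearly as shallow at 0.603.

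In uFIB day 12 all 10 members were under 1 FPKM, between 0 and 0.506. With SL, 8 members were at least 2-fold higher and at 1 FPKM or more at day 12, where 16.3% of genes were higher, and 8 at day 21, where 14.6% were. With SFGL the counts were 8 at day 12 (16.9% of genes) and 8 at day 21 (16.5% of genes). No member was lower, while 18.2% and 15.7% of genes were in SL and 21.5% and 20.2% in SFGL at day 12 and day 21. *Fcgr1* and *Trem2*, the 2 members not among these 8, were under 1 FPKM in every fibroblast library. In the library labelled FGL, 7 members were higher at day 12, where 3.91% of genes were, 0 were higher at day 21, where 1.15% were, and 3 were lower at day 21, where 0.984% were. The count of 3 became 0 with uFIB averaged over both days as the reference or with a limit of 5 FPKM, and 7 with no limit.

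**Figure D3:**
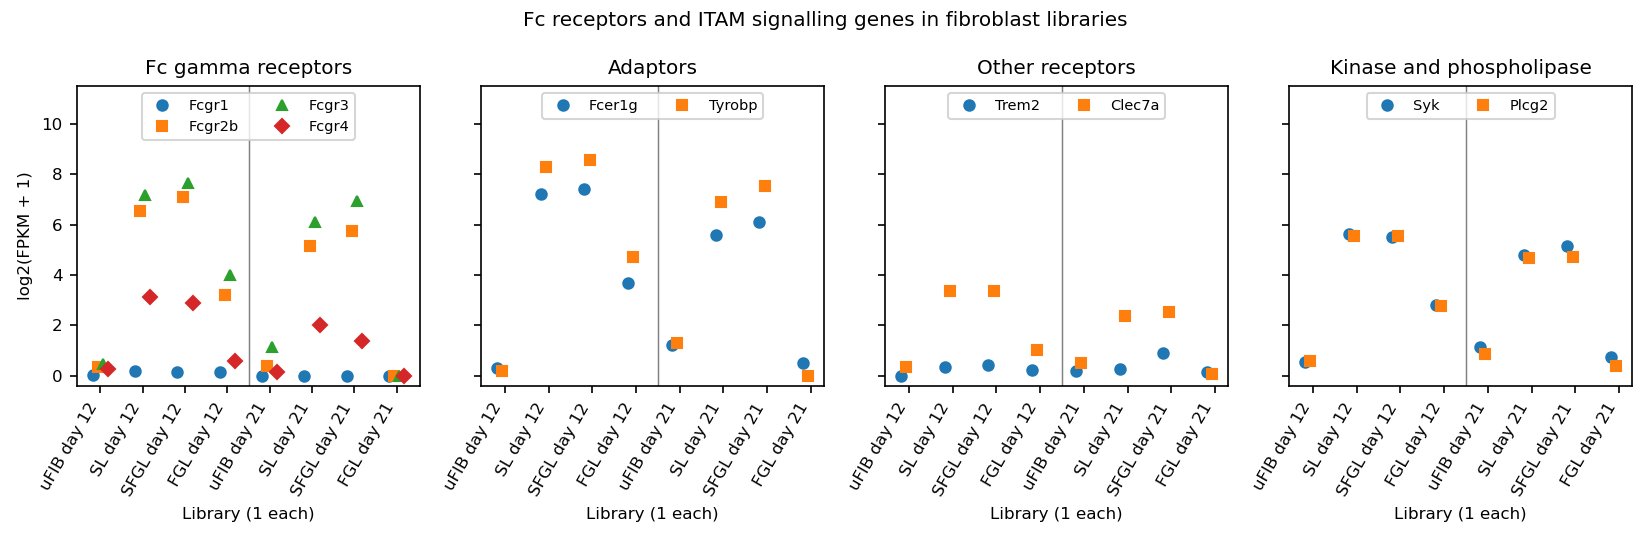
log2(FPKM + 1) of the 10 members in the 8 fibroblast libraries, day 12 left and day 21 right of the line in each panel, 1 point per gene and library and no error bars. The SL and SFGL libraries are at least 2-fold above uFIB on both days for 8 members, while Fcgr1 and Trem2 stay under 1 FPKM.

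Both adaptors rose in SL and in SFGL. *Tyrobp* was at 0.152 FPKM in uFIB at day 12, where SL had 310, SFGL 381 and FGL 25.0 FPKM, and in the same order at 1.49, 119, 184 and 0 FPKM at day 21. *Fcer1g* was at 0.242, 146, 170 and 11.7 FPKM at day 12 and at 1.36, 46.7, 67.5 and 0.413 FPKM at day 21. For both genes every SL and SFGL value was above every uFIB and FGL value. The share of all genes in this order is not given here. Treatments were tested with limma over all 8 libraries with day as a term. The spread is thus that between the days of a treatment once the day shift shared by all treatments is removed. It has 3 residual degrees of freedom per gene. The fit draws it towards a trend over all genes, so that SE and p also rest on the other genes. By this test 25.3% of genes rose in SL and 27.8% in SFGL. *Tyrobp* rose by 6.83 (SE 1.25, adjusted p = 0.00779) in SL and 7.29 (SE 1.25, adjusted p = 0.00504) in SFGL on log2(FPKM + 1), and *Fcer1g* rose by 5.62 (SE 0.884, adjusted p = 0.00479) and 5.98 (SE 0.884, adjusted p = 0.00306) by limma.

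*Fcgr3* was at 0.381, 142, 200 and 15.1 FPKM in uFIB, SL, SFGL and FGL of day 12, and at 1.20, 68.2, 123 and 0 FPKM at day 21. *Fcgr2b* was at 0.273, 91.7, 134 and 8.20 FPKM at day 12 and at 0.319, 34.9, 53.2 and 0 FPKM at day 21. *Fcgr4* was lower, at 0.209, 7.70, 6.41 and 0.515 FPKM at day 12 and 0.110, 3.02, 1.62 and 0 FPKM at day 21. All 3 were highest in SL and SFGL on both days, an order whose share over all genes is likewise not given here. With limma, log2(FPKM + 1) rose in SL by 5.84 (SE 1.03) for *Fcgr3*, 5.48 (SE 0.701) for *Fcgr2b* and 2.35 (SE 0.337) for *Fcgr4*, with adjusted p = 0.00689, 0.00263 and 0.00365. *Fcgr1* was between 0 and 0.146 FPKM over the 8 libraries and listed at 0 in all 4 of day 21. Of 50-base windows of the *Fcgr3* transcript, 12.8% were also in *Fcgr2b*, so that reads from these cannot be assigned to either gene, while none of the *Fcgr1*, *Fcgr4*, *Fcer1g* or *Tyrobp* windows were shared with another gene.

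*Clec7a* was at 0.263, 9.40, 9.35 and 1.04 FPKM in uFIB, SL, SFGL and FGL of day 12, and at 0.405, 4.12, 4.79 and 0.0449 FPKM at day 21, and rose by 2.45 (SE 0.311, adjusted p = 0.00255) in SL by limma. *Trem2*, the other receptor, ranged from 0 to 0.876 FPKM, with its highest value in SFGL day 21. *Syk* was at 0.457, 48.8, 44.0 and 6.02 FPKM at day 12 and 1.18, 26.8, 34.6 and 0.683 FPKM at day 21. *Plcg2* was at 0.506, 45.9, 46.2 and 5.88 FPKM at day 12 and 0.801, 24.5, 25.3 and 0.295 FPKM at day 21. The enzymes thus had nearly the same level in the SL and SFGL libraries, and rose in SL by 4.38 (SE 0.582, adjusted p = 0.00288) for *Syk* and 4.39 (SE 0.579, adjusted p = 0.00282) for *Plcg2* by limma.

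By limma at an adjusted p of 0.05, all 8 members that passed the filter of 1 FPKM in at least 2 libraries rose in SL, where 25.3% of the 12521 genes did, and the same 8 in SFGL, where 27.8% did. Since these members passed only through libraries in which they were high, the fit without a filter was read as well: there 8 of 10 members rose in SL (18.9% of 16876 genes) and 9 of 10 in SFGL (21.3% of genes), the ninth being *Trem2* at 0.57 (SE 0.155, adjusted p = 0.0351). When both FGL libraries were left out, the counts with the filter were again 8 and 8, the differences were as with all libraries, and the adjusted p of the members by limma was 0.00159 to 0.00764 in SL and 0.000954 to 0.0105 in SFGL. Between SFGL and SL no member was called by limma and none had an unadjusted p under 0.05, and 0 of all 12521 genes were called, with 1082 at an unadjusted p under 0.05. The difference of *Fcgr3*, the highest of the members, was 0.67 (SE 1.03, adjusted p = 0.908), so that a difference of the size of its error was not detectable here. In the library pair labelled FGL, 0 of 8 members were called against uFIB by limma, and 0 had an unadjusted p under 0.05, where 2 of 12521 genes (0.016%) were called higher and 482 had an unadjusted p under 0.05. Leaving out FGL day 21 raised the members with an unadjusted p under 0.05 to 6 with 0 called, and leaving out uFIB day 21 did the same. All 8 members were lower in FGL than in SL by limma (24% of genes were), from -2.26 for *Fcgr4* to -5.24 for *Tyrobp*, a count that dropped to 5 without SL day 12, 5 without SL day 21 and 6 without FGL day 21.

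The 6 members with at least 10 FPKM in SL day 12 stood in FGL day 12 at 8.01% to 12.8% of their SL value. Neutrophil markers at the same limit stood at 7.67% to 20.1%, with a median of 8.89%, mast cell and basophil markers at 4.42% to 31.8%, with a median of 9.36%, and erythroid markers higher, at 18.3% to 39.1%, with a median of 27.0%. In uFIB day 21, the same members stood at 0.912% to 4.41% of SL day 21, with a median of 2.33%, and the medians were 0.707% for neutrophil, 0.256% for mast cell and basophil and 0.0632% for erythroid markers. The part of other cells in the levels of the members in these 2 libraries was not tested. From day 12 to day 21 the 8 members were lower in SL, at 0.319 to 0.550 of the day 12 value, and in SFGL, at 0.253 to 0.786, with 1 library each and no test. The summed neutrophil markers went from 36593 to 16076 FPKM in SL and from 21779 to 9837 FPKM in SFGL over the same days. Macrophage markers went from 178 to 90.1 FPKM in SL and from 110 to 86.3 FPKM in SFGL. Fibroblast markers went from 2675 to 1647 FPKM and from 2180 to 1303 FPKM. Lymphoid markers went from 23.3 to 16.4 FPKM and from 18.6 to 13.7 FPKM. Mast cell and basophil markers were at 1072 and 931 FPKM in SL and 1213 and 1182 FPKM in SFGL. Megakaryocyte markers were at 88.7 and 95.3 FPKM and 144 and 175 FPKM. Erythroid markers were at 298 and 431 FPKM and 164 and 472 FPKM. The part of any cell type in the lower day 21 values was not tested.

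The Fc gamma receptors were carried in other proportions in MAC than in the fibroblast libraries. Shares within a stage or library are compared because the tables were normalized separately. Different aligners are named for the stages and the fibroblasts, and the part of the processing in these shares was not tested. *Fcgr1* made up 9.64% of the summed FPKM of the 4 receptors in MAC and 9.76% in HP, but 0.0606% in SL day 12, 0.0296% in SFGL day 12 and 0 in both at day 21. *Fcgr2b* made up 13.0% in MAC and 15.2% in HP, against 37.9% and 32.9% in SL and 39.4% and 29.9% in SFGL at day 12 and day 21. *Fcgr3* was the main receptor in all of them, at 58.7% to 72.7%. The ratio of the activating receptors *Fcgr1*, *Fcgr3* and *Fcgr4* to the inhibitory *Fcgr2b* was 5.59 in HP and 6.68 in MAC, and 1.64, 2.04, 1.54 and 2.34 in SL day 12, SL day 21, SFGL day 12 and SFGL day 21. Without *Fcgr3*, the ratio was 1.13 and 1.10 in HP and MAC and 0.0856, 0.0864, 0.0484 and 0.0305 in the SL and SFGL libraries. Of the *Fcgr2b* windows, 4.96% were also in *Fcgr3*, and the part of shared sequence in these ratios was not tested. In the same way the FPKM of *Tyrobp* divided by that of *Fcer1g* was 2.11 and 2.25 in SL and SFGL at day 12 and 2.54 and 2.72 at day 21, against 7.89 in MAC.

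**Figure D4:**
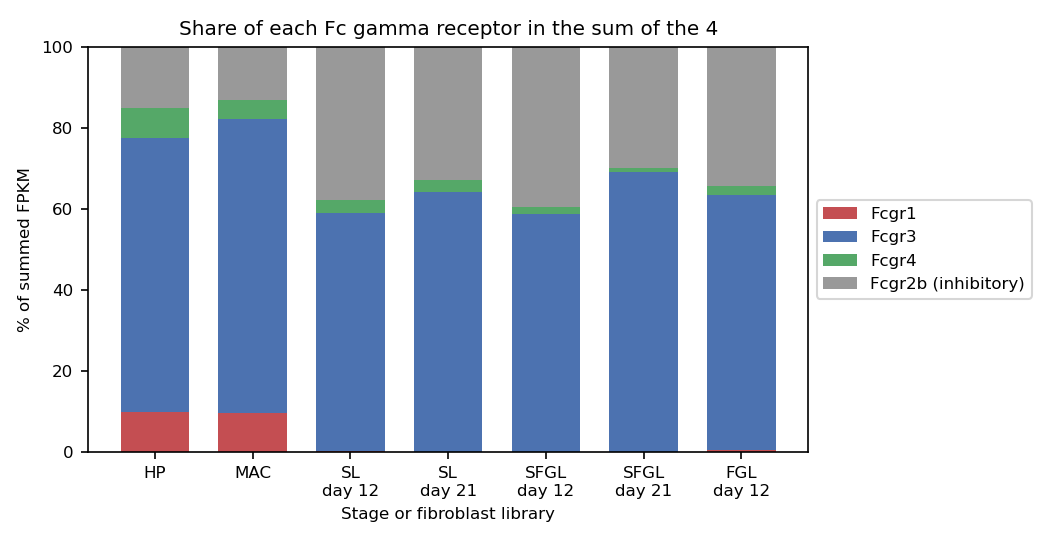
Share of each Fc gamma receptor in the summed FPKM of the 4, in percent, for 2 stages and 5 fibroblast libraries, 1 value each and no error bars. Fcgr1 takes 9.76% in HP and 9.64% in MAC and is barely visible in the fibroblast libraries, where Fcgr2b takes at least 29.9%.

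Markers of other cells also differed between MAC and the SL and SFGL libraries. In SL day 12 all 10 neutrophil markers were above 1 FPKM, with *S100a8* at 13249 FPKM, *Ngp* at 10714 FPKM and *Mpo* at 582 FPKM, and 9 of 11 mast cell and basophil markers were, with *Mcpt8* at 736 FPKM and *Cpa3* at 70.2 FPKM. The neutrophil markers summed to 13.2 and 250 FPKM in uFIB at the 2 days, to 36593 and 16076 FPKM in SL, to 21779 and 9837 FPKM in SFGL and to 3237 and 14.8 FPKM in FGL. Of 11 macrophage markers, 6 reached 1 FPKM in SL day 12, with *Lyz1* at 72.5 FPKM, *Cd14* at 50.2 FPKM and *Cd68* at 26.2 FPKM, while *Csf1r* was at 0.884 FPKM, *Mrc1* at 0.573 FPKM and *Cx3cr1* at 0.0590 FPKM. The macrophage markers summed to 13.2 and 13.5 FPKM in uFIB and to 178 and 90.1 FPKM in SL. Fibroblast markers summed to 8094 FPKM in uFIB day 12 and 2675 FPKM in SL day 12, so that SL libraries still held fibroblast transcripts. *Gata2* is both a mast cell marker and a factor supplied in SFGL and FGL. The part of each cell type in the values of the members was not tested.

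**Figure D5:**
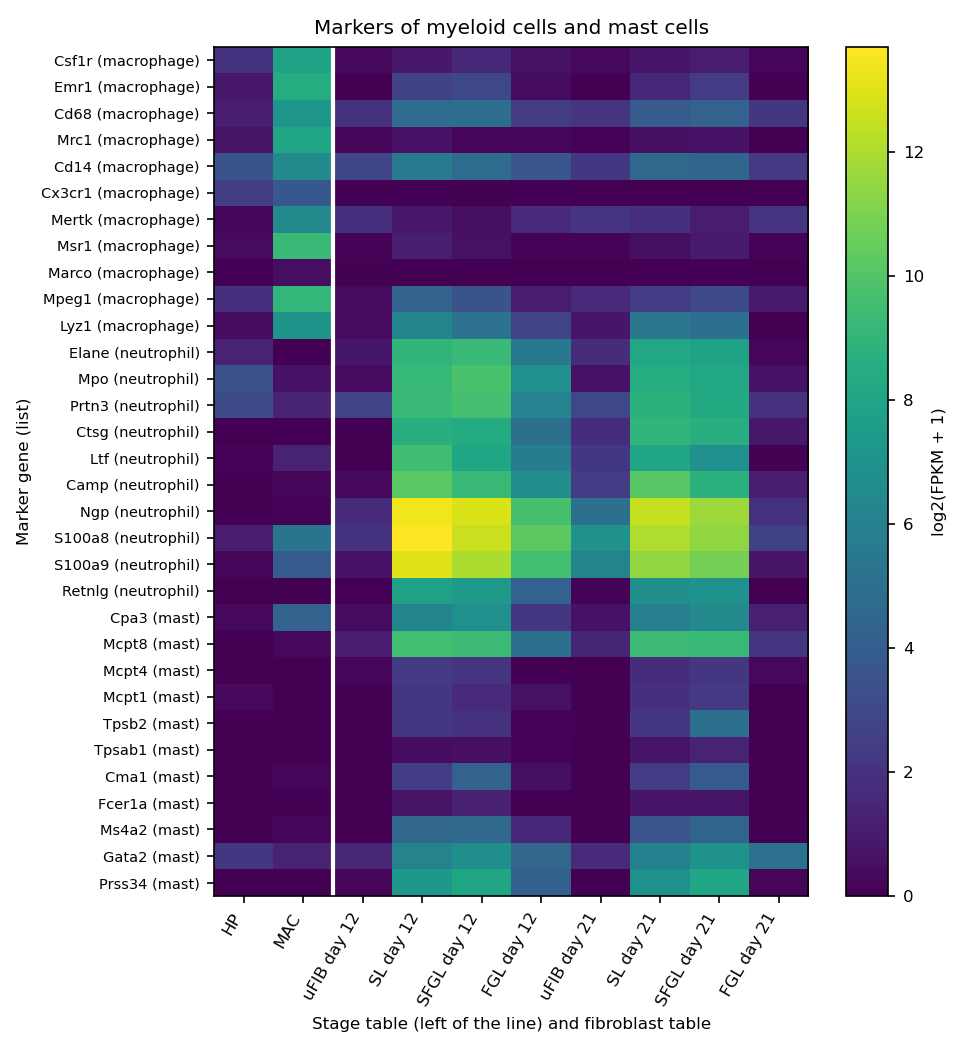
log2(FPKM + 1) of macrophage, neutrophil, and mast cell and basophil markers (rows) in HP and MAC, left of the white line, and in the 8 fibroblast libraries, 1 value each. Macrophage markers are bright in MAC, and neutrophil markers are bright in SL and SFGL on both days.

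The transcription factors named with these genes did not all follow the members. *Runx1* was at 19.2 FPKM in HP and 9.73 in MAC, and at 19.9 and 39.6 FPKM in uFIB and SL of day 12. *Cebpa* was at 2.42 and 59.2 FPKM in HP and MAC, and at 60.7 and 45.9 FPKM in uFIB and SL of day 12. *Cebpb* was at 13.5 and 140 FPKM in HP and MAC, and at 76.9 and 153 FPKM in uFIB and SL of day 12. *Sfpi1*, which encodes PU.1, was at 0.322, 16.7 and 111 FPKM in HB, HP and MAC, and at 0.0485, 156 and 171 FPKM in the uFIB, SL and SFGL libraries of day 12. *Irf8*, a factor of monocytes and macrophages, was at 0.0919 FPKM in HB and 127 FPKM in MAC, and among the fibroblast libraries of day 12 at 0.687 FPKM in uFIB and 0.253 FPKM in SL. Over the 8 fibroblast libraries the 5 genes most like *Tyrobp* on log2(FPKM + 1), among 7902 genes with at least 10 FPKM in a library, were *Alox5ap* (Pearson r = 0.999), *Fcgr3* (0.999), *Lcp1* (0.998), *Rac2* (0.998) and *Sfpi1* (0.998). Among those most like *Fcer1g* were the joint entry *Evi2a,Evi2b* (0.998) and *Atp8b4*, *Cxcr4* and *Lcp1* (each 0.997). A total of 569 genes reached 0.95 with *Tyrobp* and 734 with *Fcer1g*, and over the 6 libraries without FGL 1132 and 1149 did, with the named genes at 0.998 to 0.999 for *Tyrobp* and 0.996 to 0.997 for *Fcer1g*. Since the libraries fall into those with and without blood cell transcripts, these values describe that split.

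The other pathway genes in the fibroblasts also included genes in both directions. Over all genes 25.3% rose and 27% fell in SL by limma, and 27.8% rose and 30.9% fell in SFGL. Genes that passed the filter of 1 FPKM only in SL and SFGL could only be higher there, so that counts without a filter follow each count, to be read beside 18.9% rising and 20.0% falling in SL. Of the 12 tested other receptors coupled to *Tyrobp* or *Fcer1g*, 11 rose and 0 fell in SL by limma, and without a filter 11 of 17 rose and 0 fell, with *Clec4d* up by 4.45 (SE 0.413, adjusted p = 0.00128) and *Clec4n* up by 3.01 (SE 0.577, adjusted p = 0.00891). Of 27 tested downstream effectors 22 rose and 2 fell, and without a filter 22 of 28 rose and 1 fell, with *Ncf4* up by 6.08 (SE 0.868, adjusted p = 0.00359) and *Cybb* up by 5.65 (SE 0.854, adjusted p = 0.00423). Of 27 tested inhibitory receptors and negative regulators 21 rose and 1 fell, and without a filter 21 of 28 rose and 1 fell, with *Lilrb4* up by 5.87 (SE 1.04, adjusted p = 0.00694) and *Cd300lf* up by 5.00 (SE 0.734, adjusted p = 0.00391). Of 8 tested kinases 5 rose and 2 fell, and without a filter 5 of 11 rose and 2 fell, with *Lyn* up by 2.06 (SE 0.263, adjusted p = 0.00259). *Hcst*, at 13.6 FPKM in SL and 21.6 FPKM in SFGL at day 12, rose by 3.03 (SE 0.284, adjusted p = 0.00130) in SL. In SFGL 3 of 8 tested kinases and 3 of 27 tested inhibitory genes fell, where 30.9% of genes did. Without a filter 2 of 11 kinases and 3 of 28 inhibitory genes fell there, where 24.0% of genes did. Of 2 tested other Fc receptors 1 rose and 1 fell, and without a filter 3 of 10 rose and 1 fell: *Fcgrt*, higher in MAC than in HP, went in SL from 46.2 to 12.7 FPKM at day 12 and from 52.2 to 11.2 FPKM at day 21 and fell by 1.95 (SE 0.144, adjusted p = 0.00106) on log2(FPKM + 1) by limma. The median change in SL was 4.93 for the members that passed the filter, 2.65 for the other coupled receptors, 2.28 for the effectors, 1.60 for the inhibitory genes and 2.19 for the kinases, against -0.03 for all genes tested.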

How the data were processed

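RNA-seq of 18 samples was used: 10 ES cell-derived samples (5 stages, 2 replicates each) and 8 fibroblast libraries. RNA of the stages was depleted of ribosomal RNA and sequenced on SOLiD as 50-base single reads. According to the paper, the authors aligned its colour-space reads with SHRiMP to mm10, kept uniquely mapped reads, removed duplicates with Picard and computed FPKM with Cufflinks and RefSeq genes. The submitters' processing notes name TopHat and Cufflinks for the fibroblasts, and versions are not given in the sources used here. The authors deposited FPKM per transcription start with the replicates of a stage combined, and FPKM per gene and library for the fibroblasts, so that the number of reads is unknown. For the fibroblasts, relative depth was estimated from the spacing of values under 0.3 FPKM. A further 1 column of stage values, for the hemogenic endothelium between HB and HP, has no sample here and was not used. Start values were summed per gene. Levels were compared within a table, and across the tables only as shares and ratios within a column.

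Counts of changed genes used a fold of 2 on log2(FPKM + 0.001) and at least 1 FPKM. Treatments were tested with limma 3.58.1 (R 4.3.3) with trend on log2(FPKM + 1), treatment and day as terms, and Benjamini-Hochberg adjustment over all genes with at least 1 FPKM in 2 libraries. Nothing says whether the libraries came from separate cultures, and the comparisons of FGL and SFGL with SL, the fits and correlations without FGL and the unfiltered counts over lists were added after seeing the data. On data simulated for SL against uFIB over 12521 genes, 82% of genes changed by 1 on the log2 scale and 100% of those changed by 2, 4 or 6 were called, with 0.138% of unchanged genes. The simulated noise was independent, was drawn from the variances of the same fit and held no day effect, and 200 genes were changed. It therefore checks the code and cannot give the error rates in the real libraries. The planned search of protein sequences was made on coding bases instead. The named genes were the 10 members, for each other pathway list the 2 highest in MAC and those with the largest rise and fall from HP to MAC, the 5 genes most like each adaptor over the fibroblast libraries, and markers that a result turns on. Some genes that this rule names are not reported here. The members and lists were chosen with earlier results of these data known. Alternatives were pseudocounts of 0.1 and 1, no limit or a limit of 5 FPKM, a fold of 4, upper-quartile scaling, uFIB averaged over both days as the reference, no day term and leaving out libraries. Figures were drawn with matplotlib 3.10.9.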

Additional observations from a re-analysis of the deposited data

Results flagged for a closer look

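In 3 members the library labelled FGL was at least 2-fold higher than uFIB at day 12 and at least 2-fold lower at day 21. Each comparison had at least 1 FPKM in 1 of its 2 libraries, with 1 library each. Other members, among them *Syk*, *Plcg2* and *Fcgr2b*, were also higher at day 12 and lower at day 21, but missed these limits at day 21. *Syk* was at 6.02 FPKM in FGL and 0.457 in uFIB at day 12, and at 0.683 and 1.18 FPKM at day 21. On log2(FPKM + 1), FGL minus uFIB was 3.54 at day 12 and -1.14 at day 21 for *Fcgr3*, a difference of 4.68 between the days. For *Fcer1g* it was 3.36 and -0.74, a difference of 4.09, and for *Tyrobp* 4.49 and -1.32, a difference of 5.81. The difference between days was not tested, since each day holds 1 FGL and 1 uFIB library. The FGL library of day 12 carried *Tal1* at 7.04 FPKM and *S100a8* at 1229 FPKM, and the uFIB library of day 21 carried *S100a8* at 126 FPKM, against 2.97 FPKM in uFIB day 12.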

How the results depend on the processing

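No paired analysis was possible because the stage values combine the replicates that share a number, and the fit with a replicate block was not run. The counts of members higher from HB to HP and from HP to MAC, and in SL and SFGL, stayed within 1.5 times under every alternative run. From ESC to MES, 2 members were higher and 4 lower with no limit on FPKM, and 0 were higher at 4-fold. From MES to HB, 1 was higher with no limit on FPKM, and 1 was lower with a pseudocount of 1 or a limit of 5 FPKM and 0 at 4-fold. In FGL day 21, 7 members were lower with no limit on FPKM and 0 with a limit of 5 FPKM or uFIB averaged over both days as the reference. Without *Fcgr3* the ratio of activating to inhibitory receptors was 1.13 in HP, 1.10 in MAC, 0.0856 and 0.0864 in SL and 0.0484 and 0.0305 in SFGL at day 12 and day 21. The HP to MAC difference of *Plcg2* was -0.48 after upper-quartile scaling. In limma, all 208 values in SL and SFGL of the 8 members that passed the filter kept their direction over all alternatives, leaving out each library included. The other members, *Fcgr1* and *Trem2*, were in the fit without a filter alone. There *Fcgr1* differed from uFIB by 0.08 (SE 0.0488, adjusted p = 0.245) in SL and 0.05 (SE 0.0488, adjusted p = 0.434) in SFGL by limma. *Trem2* differed by 0.22 (SE 0.155, adjusted p = 0.318) in SL by limma. The members called lower in FGL than in SL ranged from 5 to 8 when a library was left out and were 7 with a pseudocount of 0.1. The value of *Tyrobp* in FGL against uFIB, not called in any fit, ranged from -0.54 to 3.72 when a library was left out. Fewer libraries leave fewer degrees of freedom in these fits. FPKM without read counts and 1 library per treatment and day limit what can be told of small differences.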
